A study of Sus scrofa domesticus with 4 samples.

Results

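Interferon signalling and stimulated genes were described in slices of pig endometrium kept in culture, some exposed to orexin A (OXA), a hypothalamic neuropeptide that acts through G protein-coupled orexin receptors. The set held 7 genes: the transcription factor IRF1, the RNA sensor DDX58, and the antiviral genes ISG15, MX1, MX2, OAS1 and RSAD2. Members were found by matching the RefSeq accession of every probe that was not a control to a pig gene symbol. This gave 11 probes for 5 of the 7 genes, out of 3029 genes named in the same way: 2 probes for IRF1, 1 for ISG15, 5 for MX1, 1 for MX2 and 2 for RSAD2. No probe was matched to OAS1 or DDX58, which were not analysed here; 36903 of the 43603 probes had no gene name by this route.

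The tissue came from 4 mature Large White x Polish Landrace gilts, 7 to 8 months old, on days 15 to 16 of gestation. Endometrial slices from the middle of the uterine horns were preincubated for 2 h and then kept for 24 h in medium alone (control) or with OXA. The treatment protocol and the sample labels give 10 nM OXA, whereas the design text gives 10 µM. Control and OXA RNA were hybridised together on 4 two-colour Agilent arrays, with OXA in the red dye Cy5 on arrays 1 and 3 and in the green dye Cy3 on arrays 2 and 4. The labels describe 4 separate experiments with cultures in duplicate, and do not tie an array to an animal. All groups were pregnant, so no comparison with non-pregnant tissue was possible, and the slices hold all cell types of the endometrium.

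Interferons bind cell-surface receptors and activate JAK kinases, which phosphorylate STAT factors, and these, with factors of the IRF family, switch on interferon-stimulated genes. Many of those genes act against viruses: OAS enzymes are switched on by double-stranded RNA, MX proteins are dynamin-like GTPases that trap viral components, RSAD2 (viperin) is a radical SAM enzyme, and ISG15 is a ubiquitin-like protein that is joined to other proteins. In the pig, the elongating conceptus secretes interferon gamma and interferon delta around implantation, and the endometrium responds with interferon-stimulated genes. No sequence is shown, since the probe files used here hold none.

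Between 62.3% and 74.5% of probes were well above background in Cy5 and between 31.7% and 56.7% in Cy3, with the lowest share of each dye on array 1, and no spot was saturated. Array 1 was on a slide and scan of its own, and arrays 2 to 4 shared the other slide. Across tested probes, the log2 ratio of OXA to control correlated weakly between arrays, from -0.293 (arrays 3 and 4) to 0.443 (arrays 1 and 2). Precision is limited by having 4 arrays. All 6 tested epithelial markers (such as EPCAM, CDH1 and KRT8) and all 3 tested stromal markers (LUM, DCN and COL1A2) were well above background in all 8 readings, that is, in both dyes of all 4 arrays.

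The members were bright: all 11 probes were well above background in all 8 readings, as were 31.4% of the 43603 probes. None passed the test for a difference between OXA and control tissue. In the limma fit, which estimates an OXA coefficient beside a dye coefficient and adjusts p by the Benjamini-Hochberg method over 26927 probes, 0 of 5 members had an adjusted p under 0.05. The background was 0% (0 of 26927 probes), with 509 probes (1.89%) at an unadjusted p under 0.05 and 3 past the adjusted threshold with an intensity trend and robust fitting. By a looser rule, an unadjusted p under 0.05 and at least a 1.2-fold difference, 0 of 5 members and 0 of 11 probes were called, against 1.32% of all probes. Two-sided exact tests that flip the signs of 4 arrays cannot give a p below 0.125.

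The estimates lay on both sides of 0. The median log2 OXA over control was -0.12 over the 5 members, 0.02 over all tested probes and -0.02 over named genes. The coefficient was below 0 for 4 members and 10 of 11 probes, against 42.9% of all probes, but the probes of a gene are not independent. Among probes bright in all 8 readings, as the members were, the median was -0.0015, lower than over all tested probes. With median centring in place of the loess correction for dye bias that depends on brightness, IRF1, MX1 and RSAD2 were above 0, and the median over all probes was 0.14 in place of 0.02. No member had the same sign on 4 of 4 arrays, against 11.9% of all probes. A fold of at least 1.2, without regard to the test, was reached by 2 of 5 members (ISG15 and MX2), against 11.1% of all probes.

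**Figure D1:**
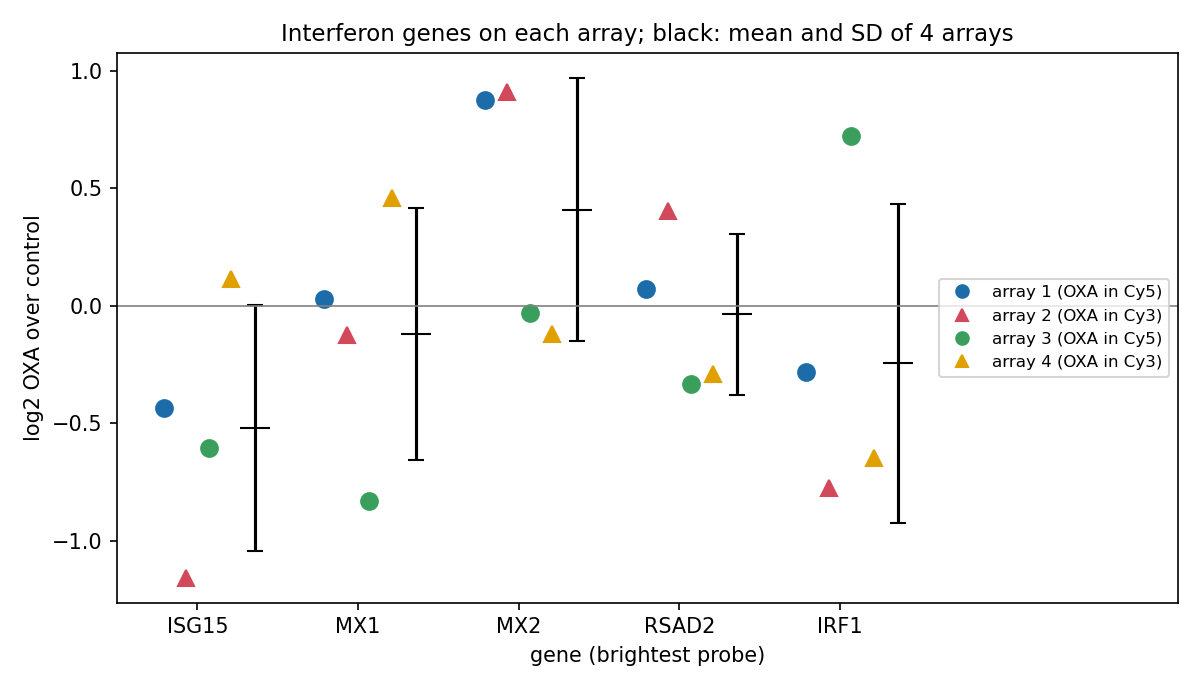
Log2 ratio of OXA to control (vertical axis) of the brightest probe of each member on each of 4 arrays, with points by array and dye of OXA and bars for the mean and SD (n = 4). Every gene has arrays on both sides of 0; ISG15 has the lowest mean (-0.52) and MX2 the highest (0.41).

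ISG15 had the largest coefficient in size. Its level, a log2 intensity after normalisation within and between arrays, was 16.86 in control and 16.43 in OXA tissue on array 1. On array 2 the control level was 17.39 and the OXA level 16.23, and on array 3 they were 17.22 and 16.62. On array 4 the control level was 16.67 and the OXA level 16.78. OXA tissue was therefore the lower on arrays 1, 2 and 3 and slightly the higher on array 4, and the control and OXA levels overlapped between arrays.

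The log2 ratios of OXA to control for ISG15 were -0.44, -1.16, -0.60 and 0.11 on arrays 1 to 4, with a mean of -0.52 ± 0.52 (SD, n = 4). The coefficient of -0.52 (SE 0.24, 95% confidence interval -1.18 to 0.14) corresponds to a ratio of 0.697. The limma p was 0.0933 and the Benjamini-Hochberg adjusted p was 0.763; the exact sign-flip test gave p = 0.25 (two-sided). The change did not pass the test, and the interval spans ratios from 0.441 to 1.10. Without array 4 the coefficient was -0.84 and without array 2 it was -0.20, so single arrays moved the estimate by over 1.5 times. Such a fit keeps only 1 array with OXA in 1 of the dyes, and the spread of that array is not measured. Cy5 over Cy3 as scanned was 0.78, 3.28, 2.37 and 1.81 on the log2 scale on arrays 1 to 4, when the array medians over all probes were -0.51, -0.27, 0.25 and -0.10.

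MX1, the GTPase gene with 5 probes, differed far more between arrays than between control and OXA tissue. On its brightest probe the control and OXA levels were 15.38 and 15.41 on array 1, and 17.04 and 16.91 on array 2. They were 16.47 and 15.63 on array 3, and 14.14 and 14.60 on array 4. Both tissues were highest on array 2 and lowest on array 4. The log2 ratios of OXA to control were 0.03, -0.13, -0.83 and 0.46, which gave -0.12 ± 0.54 (SD, n = 4). In the limma fit the coefficient was -0.12 (SE 0.19, 95% confidence interval -0.66 to 0.43; adjusted p = 0.809). It was 0.10 without array 3 and 0.03 without array 2, so the sign rests on these arrays.

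The other MX1 probes had coefficients of -0.05, -0.06, -0.03 and -0.10, in order of falling brightness. On array 3 the brightest probes read -0.83 and -0.82, but the other three read -0.36, -0.01 and -0.04. The probes of MX1 thus disagreed in size on array 3. Cy5 over Cy3 as scanned for the brightest probe was 1.18, 2.27, 1.90 and 1.01 on the log2 scale on arrays 1 to 4.

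MX2 encodes the related GTPase; in the Sscrofa11.1 annotation it lies close to MX1 on the same chromosome, with 1 gene entry between them. Its control and OXA levels were 10.74 and 11.61 on array 1 and 11.78 and 12.69 on array 2. They were 11.76 and 11.72 on array 3 and 11.78 and 11.66 on array 4. OXA tissue was higher on arrays 1 and 2 and close to control on arrays 3 and 4.

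The log2 ratios of OXA to control for MX2 were 0.87, 0.91, -0.03 and -0.12, with a mean of 0.41 ± 0.56 (SD, n = 4). The limma coefficient was 0.41 (SE 0.25, 95% confidence interval -0.30 to 1.12), a ratio of 1.33, with an adjusted p of 0.763. The exact sign-flip p was 0.5 (two-sided). Coefficients without 1 array ran from 0.15 (without array 2) to 0.67 (without array 4), with 0.18 without array 1 and 0.63 without array 3. It was above 0 in each of the other scalings (0.34 to 0.73) and was 0.01 with OXA read as Cy5 on every array, and no alternative gave an adjusted p under 0.277. Cy5 over Cy3 as scanned was 1.85, 0.35, 1.51 and 1.27.

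RSAD2, or viperin, had levels of 12.29 in control and 12.37 in OXA tissue on array 1, and 14.82 and 15.22 on array 2. On array 3 they were 13.95 and 13.62, and on array 4 12.13 and 11.84. As for MX1, both tissues were highest on array 2 and lowest on array 4. The log2 ratios were 0.07, 0.40, -0.33 and -0.29, with a mean of -0.04 ± 0.34 (SD, n = 4). The limma coefficient was -0.04 (SE 0.15, 95% confidence interval -0.47 to 0.39; adjusted p = 0.924), and it was above 0 without array 3 (0.06) or array 4 (0.14). The dimmer probe read -0.45, -0.30, 0.03 and -0.02 on arrays 1 to 4, with a coefficient of -0.18 (SE 0.11; limma adjusted p = 0.763). The 2 probes differed in sign on all 4 arrays but array 4. Cy5 over Cy3 as scanned for the brightest probe was 1.08, 1.43, 1.68 and 1.53 on arrays 1 to 4.

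IRF1, a transcription factor that is itself induced by interferon gamma, lay below 0 on 3 arrays and above 0 on array 3. The brightest probe had control and OXA levels of 14.03 and 13.75 on array 1 and 14.96 and 14.19 on array 2. On array 3 they were 13.71 and 14.43, and on array 4 they were 14.29 and 13.65. OXA tissue was lower on arrays 1, 2 and 4 and higher on array 3. The log2 ratios were -0.28, -0.77, 0.72 and -0.65 (mean -0.25 ± 0.68, SD, n = 4). The second probe read -0.51, -0.42, 0.63 and -0.37, so both probes show array 3 apart.

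The limma coefficient of IRF1 was -0.25 (SE 0.19, 95% confidence interval -0.77 to 0.28; adjusted p = 0.763). It was -0.50 without array 3 and 0.0052 without array 1, which is also the value within the slide of arrays 2 to 4. IRF1 had the largest dye coefficient of the members: 0.47 for Cy5 over Cy3 (limma, unadjusted p = 0.0706, adjusted p = 0.932). Its normalised Cy5 over Cy3 was -0.28, 0.77, 0.72 and 0.65 on arrays 1 to 4, and as scanned it was 0.79, 2.56, 2.82 and 2.05.

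**Figure D2:**
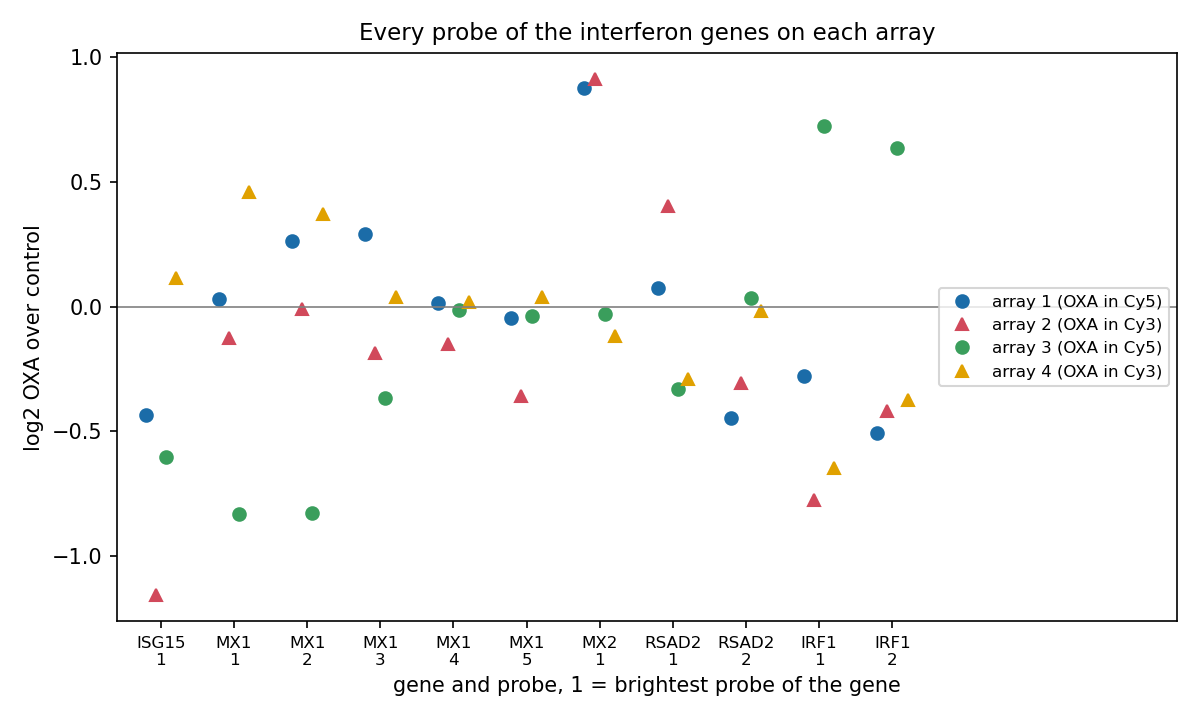
Log2 ratio of OXA to control on each array for each of the 11 member probes, ordered by gene and by brightness. The MX1 probes spread from -0.83 to -0.01 on array 3, whereas both IRF1 probes read above 0 there (0.72 and 0.63).

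The wide difference between arrays in both tissues was a pattern seen in these data and is given without a test. For each probe the level of an array was taken as the mean of its control and OXA levels, and the range as the highest minus the lowest array. The range was 2.61 on the log2 scale for MX1 (6.09-fold) and 3.04 for RSAD2 (8.20-fold), 1.06 for MX2 (2.09-fold), 0.69 for IRF1 (1.61-fold) and 0.28 for ISG15 (1.21-fold). For every member but ISG15, both tissues of the highest array were above both tissues of the lowest. Nearly flat genes such as IFN-DELTA-1 (range 0.03) and CD3D (0.12) met this too, though others such as B2M (0.21) did not. It therefore does not set the members apart, and its share over all probes was not counted. Among 26927 tested probes, the range of MX1 was at percentile 99.84 and that of RSAD2 at 99.92, whereas ISG15 was at 59.12. Among the probes bright in all 8 readings the percentiles were 99.71, 99.87 and 28.95. The range of ISG15, another interferon-stimulated gene, was narrow beside those of MX1 and RSAD2; how the ranges differ was not tested.

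A range of at least 2-fold was found in 3 of 5 members and 8 of 11 member probes, against 4.42% of all tested probes and 8.05% of those bright in all readings. Levels fell in the order array 2, array 3, array 1, array 4 in all 5 MX1 probes and both RSAD2 probes, against 7.37% of all tested probes and 9.31% of the bright ones. These probes stand for 2 of 5 members. The order was chosen after their levels were seen, so these shares describe the pattern and do not test it. MX2 and IRF1 were also highest on array 2, and ISG15 on array 3 (on array 2 without scaling between arrays). The highest and lowest arrays of MX1 and RSAD2, 2 and 4, were on the same slide and both had OXA in Cy3. Ranges of MX1 ran from 2.62 to 2.86 and those of RSAD2 from 3.12 to 3.52 with no background correction, no scaling between arrays or the intensities as scanned, each with the same order of arrays. Whether an array stands for 1 animal cannot be told from the labels, and the part played by the animal, the culture or the RNA was not tested.

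**Figure D3:**
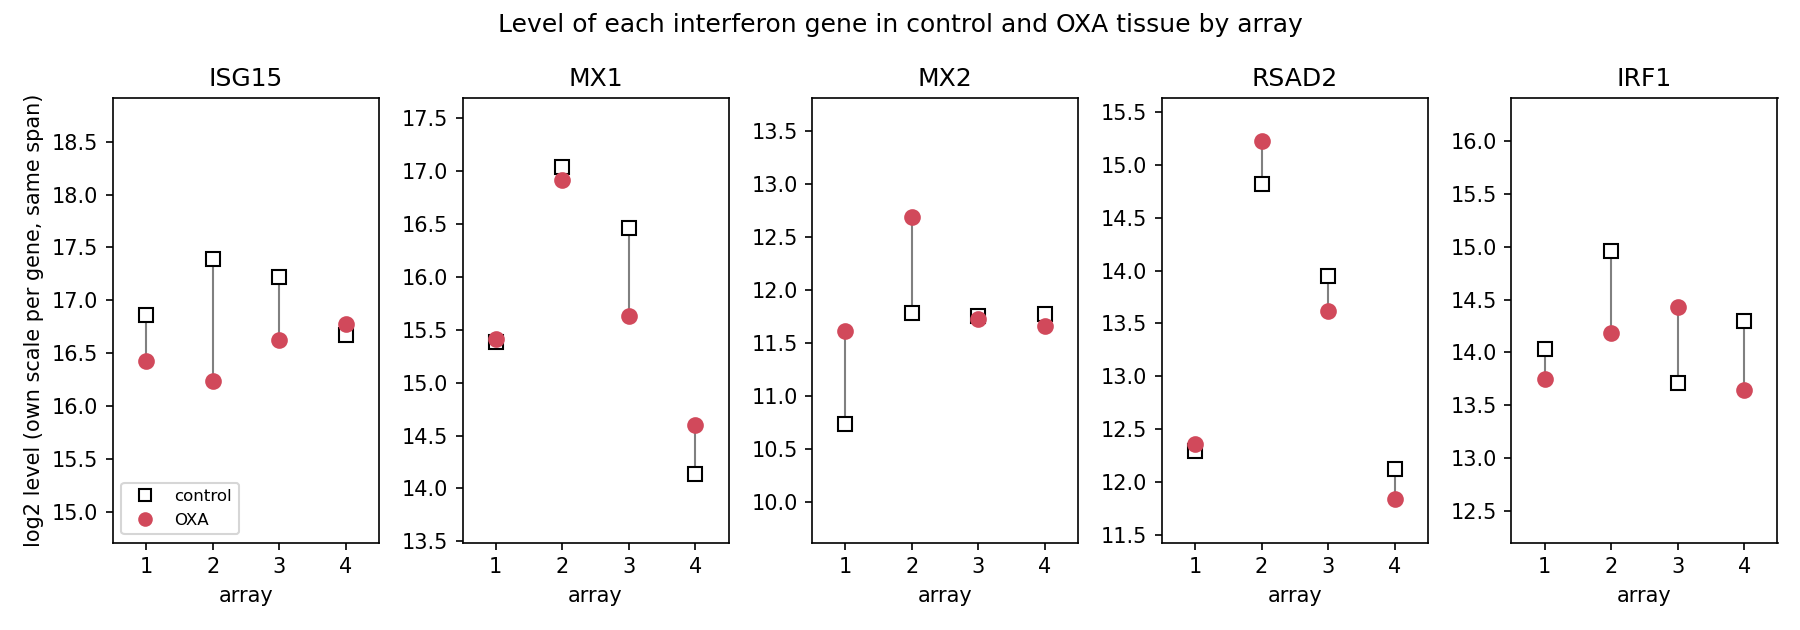
Control and OXA log2 levels of the brightest probe of each member on each array, joined within an array. MX1 spans 14.14 to 17.04 and RSAD2 11.84 to 15.22, with both tissues of an array moving together, and ISG15 stays between 16.23 and 17.39.

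The other genes of the pathway were taken from a list of 125 symbols, of which 108 are in the reference, 60 were on the array by name and 56 were tested. Of these, 26 had an OXA coefficient above 0 and 30 below 0, with a median of -0.01. Beside an adjusted p under 0.05 for 0 of 56, 0 were higher and 3 lower by the looser rule (IFNGR1, B2M and SLA-3). All probes gave 0.657% higher and 0.665% lower by that rule. B2M and SLA-3 were below 0 on arrays 2 and 4 only. With median centring 46 of 56 were above 0, so directions in this list depend on the correction for dye bias; other scalings gave 24 or 25.

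Ligands were dim. IFNG, interferon gamma, was well above background in 4 of 8 readings and its coefficient was 0.05 (SE 0.07). IFN-DELTA-1, an interferon delta, had 0.08 and IFNE, the epithelial interferon epsilon, 0.03, and the 3 ligands had ranges between arrays of 0.03 to 0.18. IFNG was below 0 with median centring (-0.06), the Agilent log ratio (-0.41) and the authors' deposited table (-0.50). The receptors had a median coefficient of -0.29, with 4 of 5 below 0, but 3 of 5 were above 0 with median centring. IFNGR1, the ligand-binding chain of the interferon gamma receptor, read -0.81, -0.08, -0.38 and -0.46 on arrays 1 to 4. Its coefficient was -0.43 (SE 0.12; limma, unadjusted p = 0.0206, adjusted p = 0.763), and its 4 probes ran from -0.53 to -0.17. IFNGR2, its signalling partner, read -1.20, -0.15, -0.05 and -0.29, with a coefficient of -0.42 (SE 0.22), and IFNAR1, a chain of the type I receptor, had -0.19 (SE 0.11). IFNAR2, the other type I chain, read 1.61, 0.94, -0.05 and -0.20, with a coefficient of 0.57 (SE 0.36; limma, adjusted p = 0.763), and was the receptor above 0. The 1 probe of IFNAR2 was very bright, with levels of 17.11 to 17.56 across arrays, against 10.34 to 10.88 for IFNAR1. Which transcripts it reads was not tested. IFNGR1, IFNGR2 and IFNAR1 were below 0 on 4 of 4 arrays, with the lowest value on array 1. The same sign on 4 of 4 arrays was found in 6 of 56 pathway genes, against 11.9% of all probes. Both gamma receptor chains were closer to 0 with median centring (-0.04 and -0.07), where IFNAR1 was above 0 (0.08).

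Among the kinases and STAT factors, JAK1 had a coefficient of -0.24 (SE 0.08; limma, unadjusted p = 0.0404, adjusted p = 0.763), but this brightest probe was the 1 below 0, and the other 4 of its 5 probes were above 0, up to 0.18. TYK2, another Janus kinase, had 0.12. In this group 3 of 7 coefficients were above 0, and 6 of 7 with median centring, and the median was -0.05. Of the IRF factors, IRF7, which amplifies type I interferon production, had -0.31 (SE 0.17) and IRF3, which is activated by the RNA sensors, had 0.18. IRF7 was above 0 with median centring (0.08).

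Of the sensors and adaptors, 8 of 9 lay above 0 (7 of 9 in the other scalings), and the median coefficient was 0.07. Across all tested probes 42.9% were below 0. The median of the list was 0.185 on array 1 and -0.019, 0.015 and -0.005 on arrays 2 to 4. Only 3 of the 9 were well above background in all 8 readings. IFIH1 (MDA5), a sensor of long double-stranded RNA related to DDX58, read 1.08, 0.66, 0.26 and -0.38, with a coefficient of 0.41 (SE 0.24). TBK1, a kinase that activates IRF3, had 0.26 (SE 0.17) and TLR9, a DNA sensor, 0.14. IFIH1, TBK1 and TLR9 kept their direction in each of the scalings tried, which all use the same 4 arrays. TLR9 read 0.57 on array 1 and -0.02, 0.01 and -0.002 on arrays 2 to 4, and was well above background in 6 of 8 readings. TBK1 read 0.19, 0.85, 0.05 and -0.05 on arrays 1 to 4. Among inhibitors, SOCS3 had 0.07 and USP18, which removes ISG15 from proteins and blocks the type I receptor, had -0.15 (SE 0.08); with median centring they were -0.0023 and 0.18.

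The other antiviral effectors were divided, with 7 above and 7 below 0 and a median of 0.01, but 13 of 14 were above 0 with median centring. OASL, an OAS-like protein, read -0.74, -0.64, -0.16 and -0.07, with a coefficient of -0.40 (SE 0.16; limma, unadjusted p = 0.0618). The gene listed as ISG12(A) read 0.08, -1.04, -0.35 and -0.09, with -0.35 (SE 0.19). OASL was below 0 on 4 of 4 arrays, and both OASL and ISG12(A) were above 0 with median centring (0.02 and 0.01). Neither passed the test (limma, adjusted p of 0.763 for each).

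Levels of several effectors also differed between arrays. OASL spanned 3.48 on the log2 scale between arrays (11.1-fold), OAS2 spanned 2.53 (5.76-fold) and IFIT1, which binds viral RNA, spanned 1.51. IFI44 and EIF2AK2, the kinase PKR, spanned 0.84 and 0.76. These 5 of 14 effectors had their levels in the order array 2, 3, 1, 4, as did 12 of 56 pathway genes, against 7.37% of all tested probes. Range and order together, at least 2-fold in that order, were met by 6 pathway genes, against 0.405% of all tested probes: OASL, OAS2, IFIT1, IRF7, DHX58 and IFIH1. ISG12(A) spanned 0.60, less than OASL or OAS2. Array 2 was the highest for 36 of 56 pathway genes and 11 of 14 effectors, against 29.8% of all tested probes.

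Markers of cell types also differed between arrays, and their part in the pattern was not tested. COL1A2, a collagen of stromal fibroblasts, was highest on array 4 and lowest on array 2, with a range of 7.63-fold. The other stromal markers spanned less, with LUM at 2.05-fold and also highest on array 4 and DCN at 1.86-fold and highest on array 3. GZMB, a granzyme of cytotoxic lymphocytes, was highest on array 2 (3.72-fold range), and CD48, found on leukocytes, was highest on array 3 (3.40-fold range), both lowest on array 1. GZMB had the widest range of the 8 T and NK markers. The others spanned 1.08-fold to 1.89-fold. CD2, LCK and CD3D were also highest on array 2, CD8A, NKG7 and CD3G on array 3 and CD3E on array 4. All 8 were lowest on array 1. The order array 2, 3, 1, 4 was found in 2 of 30 marker genes, endothelial CLDN5 (2.13-fold range) and smooth muscle CNN1 (1.25-fold). CLDN5 thus met range and order together. Of the other endothelial markers, CDH5 was highest on array 2 (2.45-fold), PECAM1 on array 3 and VWF on array 4. Epithelial CDH1 (1.88-fold) and KRT8 (1.83-fold) were highest on array 2 and lowest on array 4. Of the other epithelial markers, EPCAM, CLDN3 and CLDN4 were highest on array 1 and SPP1 on array 3. By list, the 8 tested T and NK markers had mean levels of 10.13 to 10.95 in control and 10.24 to 10.90 in OXA tissue, and the 6 epithelial markers 13.19 to 14.36 and 13.47 to 13.87. The 3 stromal markers had 12.44 to 13.78 in control and 12.30 to 14.10 in OXA tissue. Their median log2 OXA over control was 1.44 on array 1 and 0.02, 0.09 and 0.26 on arrays 2 to 4. Other lists also moved: epithelial markers had medians of -0.84, -0.34, -0.20 and 0.69 on arrays 1 to 4. Smooth muscle markers had 0.01, -0.96, 0.57 and -0.21. In these bulk slices, fewer cells of a type and less RNA per cell cannot be told apart.

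**Figure D4:**
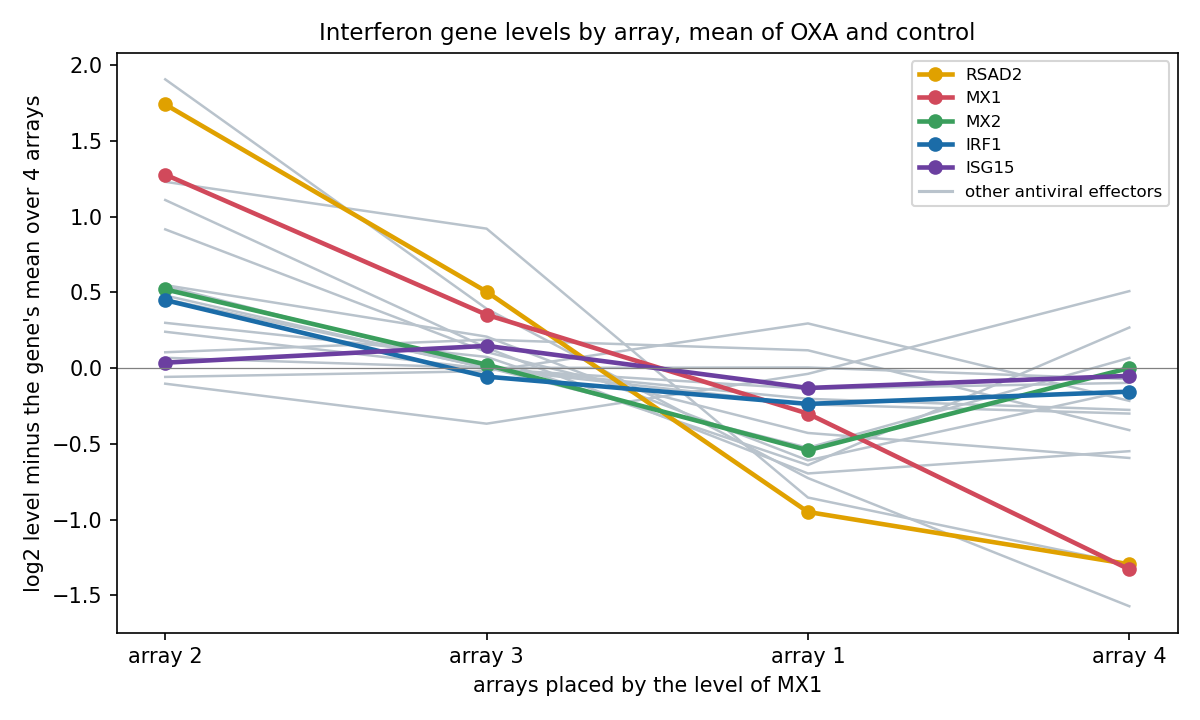
Log2 level of member and effector genes on each array, as the difference from the gene's mean, with arrays placed by the level of MX1. MX1, RSAD2, OASL and OAS2 fall steeply from array 2 to array 4, with ranges of 2.53 to 3.48, whereas ISG15 is nearly flat with a range of 0.28.

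The direction of arrays 2 and 4 was taken from the labels of single samples. The authors' deposited value table has the same direction: its sign is opposite to Cy5 over Cy3 on arrays 2 and 4 but not on arrays 1 and 3. The labelling protocol, however, is worded as if OXA were in Cy5 throughout. Read that way, the mean Cy5 over Cy3 would be the OXA effect: 0.47 for IRF1, 0.00 for ISG15, -0.28 for MX1, 0.01 for MX2 and -0.09 for RSAD2. That reading gave 0 adjusted calls among all probes. Normalised Cy5 over Cy3 was above 0 on 4 of 4 arrays for 16 of 56 pathway genes, against 10.3% of all probes, and below 0 on 4 of 4 for 1, against 3.98%. The 13 antigen presentation and chemokine genes held 7 of these 16, and had a median dye coefficient of 0.44. CXCL9, a chemokine induced by interferon gamma, had a dye coefficient of 1.47 but an OXA coefficient of 0.11. UBD, a ubiquitin-like protein, had 0.81 and 0.00. Both dye coefficients stayed above 0 in every scaling tried. The count of 16 was 13 with no background correction, 12 with the Agilent log ratio or the authors' deposited table, and 44 with median centring, where 54.3% of all probes were above 0 in this way. The dye coefficient had an unadjusted p under 0.05 in 12 of 56 pathway genes, against 3.87% of all probes, and an adjusted p under 0.05 in 0 of 56.

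B2M, the light chain of MHC class I, had an OXA coefficient of -0.33 (SE 0.06; limma, unadjusted p = 0.00641, adjusted p = 0.763) and a dye coefficient of 0.58. SLA-3, a class I heavy chain, had -0.32 (SE 0.07; unadjusted p = 0.0128, adjusted p = 0.763) and a dye coefficient of 0.53, and its probe may also read related class I genes. On arrays 1 to 4, B2M read 0.34, -0.92, 0.16 and -0.89, and SLA-3 read 0.30, -0.95, 0.10 and -0.75. Both were therefore below 0 only on arrays 2 and 4, where OXA was in Cy3. PSMB9, an immunoproteasome subunit, had -0.10 (SE 0.05) and a dye coefficient of 0.40. In this group 11 of 13 OXA coefficients were below 0, with a median of -0.04. With median centring 11 of 13 were above 0, with B2M and SLA-3 at 0.02 and PSMB9 at 0.25.

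**Figure D5:**
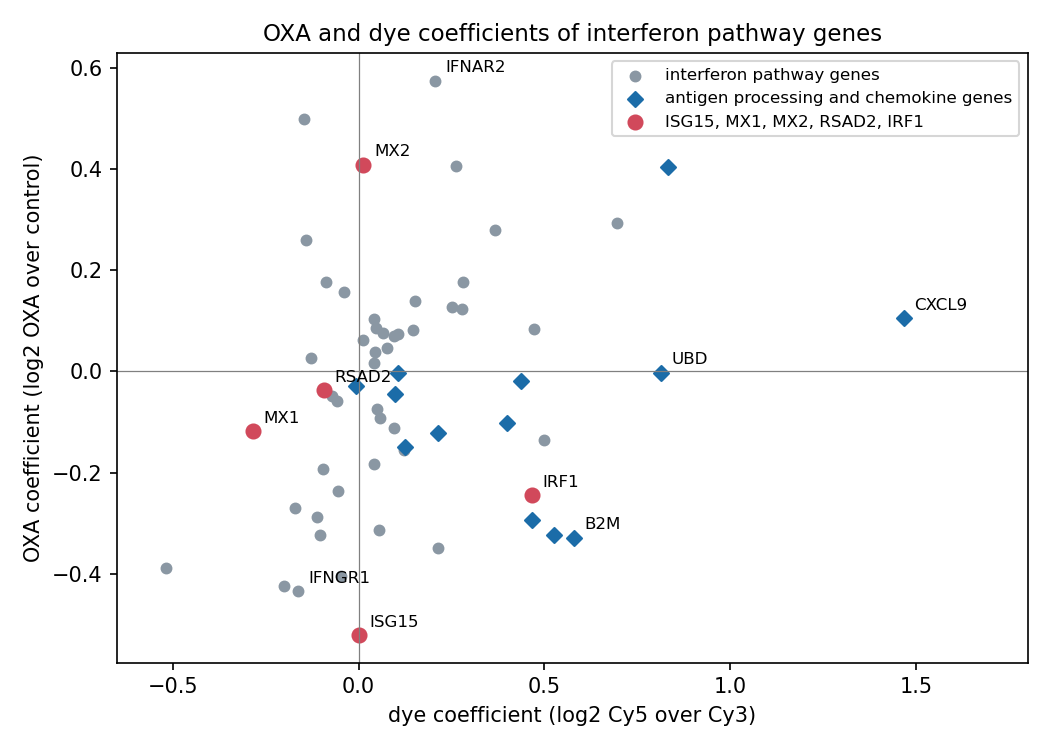
OXA coefficient against dye coefficient (log2 Cy5 over Cy3), both from the limma fit, for the members and the other pathway genes. Most antigen presentation and chemokine genes lie at dye coefficients above 0, up to 1.47 for CXCL9, while OXA coefficients stay between -0.52 (ISG15) and 0.57 (IFNAR2).

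The 5 other named genes whose 4 ratios lay nearest to those of ISG15, by root mean square difference over 4 arrays among 2402 genes, were GPX1 (0.212), RHOV (0.273), ISG12(A) (0.311), TPT1 (0.323) and ETS1 (0.326). The median gene was at 0.685. The other members were at 0.602 (MX1), 0.791 (IRF1), 0.854 (RSAD2) and 1.26 (MX2), so MX2 lay the farthest of them from ISG15 in its ratios. Distances among the other members were not computed.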

How the data were processed

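Total RNA of control and OXA-treated slices was measured on 4 two-colour Agilent arrays. The intensity values used are the median spot intensities and median local backgrounds of the deposited scanner files; per the file headers, version 10.7.3.1 of Agilent Feature Extraction made them. The same files hold the authors' deposited log10 ratio of Cy5 over Cy3, and the authors' deposited value table holds log2 ratios. That table followed OXA over control in direction (slopes on the Cy5 over Cy3 ratio of 1.06, -1.00, 1.04 and -1.03, for arrays 1 to 4, with column medians of -0.17, 0.06, -0.06 and 0.09); its centring is not known. No source used here names the genome build of the probes.

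Values were computed with limma 3.58.1 in R 4.3.3: normexp background correction (offset 50), loess within arrays with control spots at weight 0, removal of outlier spots, and averaging of the spots of a probe. Probes well above background in at least 4 of 8 readings were kept (27062, of which 135 were lost to outlier spots). Levels were scaled between arrays by Aquantile. A fit of OXA and dye coefficients (2 residual degrees of freedom, 3.89 after moderation) was followed by eBayes and Benjamini-Hochberg adjustment over 26927 probes. Each gene was named through RefSeq accessions without versions (6700 of 7125 matched to the Sscrofa11.1 table) and stood for by its brightest tested probe. Named pathway genes were up to 3 per role by lowest unadjusted p, of which some are not reported here; IFNAR2, CXCL9, UBD, IFI44, IFIT1, OAS2, EIF2AK2, DHX58, GZMB, CD48 and COL1A2 were named after their values were seen. The members and lists were chosen with earlier results of these data known. The alternatives were other background corrections, normalisations, dye readings, filters, variance models and arrays left out. In the main fit, p-values rest on how far array 1 lay from array 3 and array 2 from array 4, moderated over all probes. A difference between these 2 pairs goes into the dye coefficient and does not widen the SE of the OXA coefficient. For B2M, the SD of the log2 OXA over control was 0.67 over 4 arrays, but the SE was 0.06.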

Additional observations from a re-analysis of the deposited data

Results flagged for a closer look

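In 3 of 49 profiles over 4 arrays examined, 1 array lay far from the other three, a share that chance gives in about 1 of 20 such profiles. The dimmer IRF1 probe read 0.63 on array 3 on the log2 OXA over control scale, against -0.51 to -0.37 on the other arrays. IFN-DELTA-1 read 0.29 on array 1, against -0.01 to 0.03, and TLR9 read 0.57 on array 1, against -0.02 to 0.01. Array 1 held 2 of the 3.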

How the results depend on the processing

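The count of probes past an adjusted p under 0.05 was 0, and 3 with an intensity trend and robust fitting. The count by the looser rule of p and fold was 356 as reported. It was 1405 with no background correction, 1829 with the Agilent log ratio, 1824 with the authors' value table, 4292 with median centring, 681 with OXA taken as Cy5 throughout and 193 with array weights. Leaving out 1 array gave 286 to 3125. Members past that rule numbered 0 as reported, 1 with no background correction (ISG15), 1 with median centring (MX2) and 0 to 2 without 1 array. The median over members was -0.12, 0.24 with median centring and -0.26 to 0.065 without 1 array. The median over pathway genes was -0.01, and 0.19 with median centring, when that over all probes was 0.14.

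The fit without a dye coefficient, both filters, the intensity trend and the array weights gave each member the same coefficient, so they say nothing about its direction. IRF1 was 0.069 with median centring, 0.47 with OXA read as Cy5 and 0.0052 within the slide of arrays 2 to 4, and -0.50 to 0.0052 without 1 array. ISG15 was 0.0014 with OXA read as Cy5. MX1 was 0.24 with median centring and -0.33 to 0.10 without 1 array, and RSAD2 was 0.33 and -0.21 to 0.14. The cause was not tested. With all 4 arrays in the fit, the lowest adjusted p (limma) over these alternatives was 0.277, for MX2 with median centring. Each log2 ratio already pairs control with OXA RNA on 1 array, so no further block was fitted.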
